A study of Mus musculus with 36 samples.

Results

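The globin genes described here are the 7 rows of the deposited mouse liver table whose symbols were Hba-a1, Hba-a2 and Hba-x (alpha-like) and Hbb-b1, Hbb-b2, Hbb-bh1 and Hbb-y (beta-like), out of 21889 gene symbols. They were chosen by symbol alone, and all 7 were found. The livers came from 36 male C57BL/6 mice (C57BL/6J in the study's methods), with 3 different animals at each of 12 ages. These were the late fetal age GD17.5 (day -2 from birth in the sample labels), Day 0 (at birth, before suckling), Days 1, 3, 5, 10, 15 and 20 (before weaning) and Days 25, 30, 45 and 60 (after weaning). No mouse was treated or genetically altered, so age was the only planned variable, and Day 60 served as the adult reference. Feeding changed along with age, through suckling and weaning, and at Days 0 and 1 the time of collection was set by birth. Total liver RNA was selected for poly-A, sequenced by RNA-Seq, and reported as FPKM (fragments scaled by transcript length and by library size), a level per length that can be set side by side between genes.

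Hemoglobin carries oxygen in red cells as a tetramer that pairs alpha-like with beta-like globin chains. In the mouse embryo the first, primitive red cells make embryonic chains (zeta from Hba-x, epsilon-y from Hbb-y, beta-h1 from Hbb-bh1) together with alpha chains, whereas definitive red cells made in the fetal liver and later in the bone marrow and spleen use adult alpha and beta chains. The fetal liver is the main site of red cell production before birth and hands this role over around and after birth, while the globin genes stay silent in hepatocytes, the parenchymal cells of the liver.

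By the GENCODE M1 annotation of NCBI37/mm9, the build to which the authors mapped their reads, the 3 alpha-like genes lie on the plus strand of chromosome 11 within 20.9 kb. Hba-x spans chr11:32176400-32178116, Hba-a1 chr11:32183511-32184465 and Hba-a2 chr11:32196489-32197301. The 4 beta-like genes lie on the minus strand of chromosome 7 within 40.7 kb. Hbb-y spans chr7:111000259-111001754, Hbb-bh1 chr7:110990150-110991678, Hbb-b1 chr7:110975048-110976610 and Hbb-b2 chr7:110961038-110962510. On the transcribed strand, both embryonic beta-like genes stand before both adult ones, and the embryonic Hba-x stands before Hba-a1 and Hba-a2.

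Both adult pairs are nearly identical in their coding sequence, which decides how far their values can be told apart. Hba-a1 and Hba-a2 differed at 1 of 429 coding bases (99.8% identity), written C381T, and Hbb-b1 and Hbb-b2 at 1 of 444 coding bases (99.8% identity), written C417T, with positions counted from 1 at the A of the start codon. The 61 coding bases around each of these positions are shown with the embryonic genes at the same positions, 351 to 411 for the alpha-like and 384 to 444 for the beta-like genes. Capitals mark bases that differ from the partner in the adult pairs, and from Hba-a1 or Hbb-b1 in the embryonic genes.
Hba-a1: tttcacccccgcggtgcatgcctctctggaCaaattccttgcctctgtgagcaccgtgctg
Hba-a2: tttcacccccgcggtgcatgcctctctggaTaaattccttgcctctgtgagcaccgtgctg
Hba-x: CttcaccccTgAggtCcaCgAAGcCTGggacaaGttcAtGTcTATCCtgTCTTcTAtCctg
Hbb-b1: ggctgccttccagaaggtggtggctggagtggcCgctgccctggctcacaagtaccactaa
Hbb-b2: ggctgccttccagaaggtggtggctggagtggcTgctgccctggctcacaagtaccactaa
Hbb-bh1: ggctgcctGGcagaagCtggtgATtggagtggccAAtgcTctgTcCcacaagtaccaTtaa
Hbb-y: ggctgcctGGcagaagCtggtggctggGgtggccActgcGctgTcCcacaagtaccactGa

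The embryonic genes were much further apart. Hba-x shared 62.0% of coding bases with Hba-a1, Hbb-bh1 shared 74.1% and Hbb-y 74.3% with Hbb-b1, and Hbb-bh1 and Hbb-y shared 76.4% with each other. Reads were 100 bases long, and of all stretches of that length in the annotated transcripts, 56.5% of those of Hba-a1 were also in Hba-a2 and 48.7% of those of Hbb-b1 were also in Hbb-b2. No stretch of 100 coding bases of an embryonic gene was found in an adult one. How the authors' abundance estimate divided shared fragments within each adult pair was not tested, so the level of one member of a pair is uncertain, while sums over a pair are less affected.

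The promoter sequence before the start of each gene is printed so that the adult and embryonic genes of each cluster can be set side by side. Each shows the 120 bases before the RefSeq start of transcription, taken from a table on GRCm38.p6 and placed by exact match on NCBI37; some transcripts of the older annotation start inside or upstream of these windows. The capitals mark motifs searched on both strands, namely the CACCC box, the CCAAT box, the TATA box as TATAA or as ATAAA (these can overlap) and the GATA motif as GATAA. The same 120 bases stood before Hba-a1 (chr11:32183552-32183671) and Hba-a2 (chr11:32196369-32196488), which have 1 line here. The lines for Hba-x (chr11:32176480-32176599), Hbb-y (chr7:111001722-111001841, minus strand), Hbb-b1 (chr7:110976443-110976562, minus strand) and Hbb-b2 (chr7:110962438-110962557, minus strand) follow, where the last 2 loci carry the RefSeq names Hbb-bs and Hbb-bt. Hbb-bh1 had no entry.
Hba-a1 and Hba-a2: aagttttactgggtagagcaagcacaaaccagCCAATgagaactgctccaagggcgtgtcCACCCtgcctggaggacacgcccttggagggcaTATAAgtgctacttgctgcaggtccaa
Hba-x: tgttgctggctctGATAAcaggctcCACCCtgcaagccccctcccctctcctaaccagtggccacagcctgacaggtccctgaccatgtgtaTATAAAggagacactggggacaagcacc
Hbb-y: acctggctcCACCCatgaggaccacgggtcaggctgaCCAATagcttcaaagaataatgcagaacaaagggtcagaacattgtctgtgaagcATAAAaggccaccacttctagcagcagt
Hbb-b1: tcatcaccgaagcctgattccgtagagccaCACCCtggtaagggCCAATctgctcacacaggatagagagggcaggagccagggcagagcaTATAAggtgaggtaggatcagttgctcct
Hbb-b2: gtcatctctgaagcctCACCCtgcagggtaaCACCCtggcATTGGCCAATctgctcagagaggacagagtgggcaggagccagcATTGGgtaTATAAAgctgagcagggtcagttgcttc

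With Hba-a1 and Hba-a2 counted separately, CACCC was found in 6 of 6 promoters, against 31.7% of 32851 promoters in the RefSeq table, and CCAAT in 5 of 6 (all except Hba-x), against 21.3%. TATAA was found in 5 of 6, against 11.8% of all promoters, and Hbb-y held ATAAA in its place (3 of 6, against 20.2%). GATAA was found only in the window of Hba-x among these 6, against 10.5% of all promoters. These matches describe letters in a short window and were not tied to the measured levels.

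Summed FPKM was between 353712 and 450597 per mouse. The files give FPKM without counts, but low values moved in steps of 1 fragment: among 287 low genes picked because their values lay on such steps, 93.6% of 5088 values were within 0.1 of a whole number, from which the deepest of 36 libraries was at 1.16 and the shallowest at 0.893 of the typical depth. Between mice of one age, Pearson's r across the tested genes was at least 0.952, which describes genes and not independent replicates, and no libraries were identical. The test was limma's, on the log2(FPKM + 1) scale with each age as a group, over 11149 genes that reached a mean of 1 FPKM at some age. Adjusted p-values are those of limma after Benjamini-Hochberg adjustment over all tested genes. All 7 globin genes passed this filter, the 3 embryonic ones only through the early ages at which they were high. Nothing in the sources says whether mice of one age were littermates.

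Globin RNA was a large part of the fetal liver libraries and shrank to a trace in the adult. At GD17.5 the 7 genes held 36.2%, 38.7% and 43.1% of summed FPKM in the 3 mice. The share was 18.1% ± 1.73 (SD, n = 3) at Day 0 and 7.53% ± 1.22 in the Day 1 mice, and it stood at 10.4% ± 0.453 in those of Day 3 and 7.29% ± 1.17 in those of Day 5. The adult share, at Day 60, was between 0.163% and 0.174%. Hba-a1 held rank 1 of all symbols in each mouse at GD17.5 and Day 0, and Hbb-b1 held rank 2 and Hba-a2 rank 3 in each mouse at GD17.5, whereas Hba-a1 was between ranks 84 and 100 in the Day 60 mice. Because these are bulk livers, fewer red cells and their precursors cannot be told apart from less globin RNA in each of them, and blood left in the liver counts with both.

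**Figure D1:**
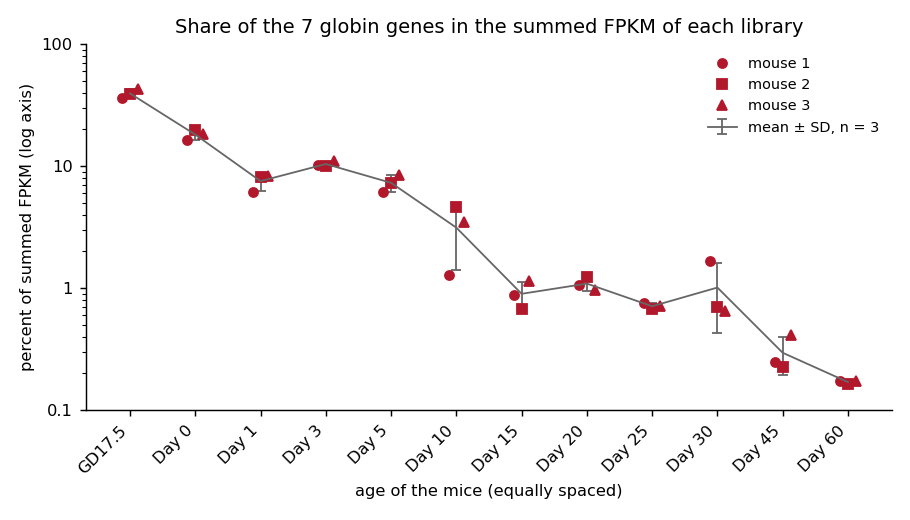
Share of the 7 globin genes in the summed FPKM of each library (percent, log axis) against age, with 1 point per mouse and the mean ± SD of 3 mice. The share fell from 36.2% to 43.1% at GD17.5 to between 0.163% and 0.174% at Day 60, with single mice apart from the others at Day 10 (1.27%) and Day 30 (1.68%).

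The adult alpha genes encode the alpha chain of adult hemoglobin. Hba-a1 measured 106337, 132136 and 154543 FPKM at GD17.5, then 49825, 65212 and 65015 FPKM at Day 0, and 542, 505 and 536 FPKM at Day 60. No mouse of one of these ages overlapped with a mouse of another, and the mean at GD17.5 was 248 times that at Day 60. On the log2(FPKM + 1) scale the difference was 7.94 (SE 0.37, limma adjusted p = 1.09e-17). Hba-a2 measured 14747, 12926 and 10687 FPKM at GD17.5 and 109, 37.9 and 36.3 FPKM at Day 60. Its GD17.5 mean was 209 times its Day 60 mean, and the log2 difference was 7.87 (SE 0.63, adjusted p = 3.18e-12). Hba-a2 had the widest error of the 7 genes, with values such as 12488 FPKM in mouse 1 of Day 0 beside 4073 and 3842 FPKM in the others.

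The adult beta genes encode the partner chain of adult hemoglobin. Hbb-b1 measured 17193, 26850 and 27716 FPKM at GD17.5, then 9041, 13689 and 9952 FPKM at Day 0, and 68.2, 79.2 and 106 FPKM at Day 60. The 3 ages were separate in every mouse, and the GD17.5 mean was 283 times the Day 60 mean (log2 difference 8.12, SE 0.38, adjusted p = 2.00e-17). Hbb-b2 was far lower per length, at 158, 176 and 217 FPKM at GD17.5 and 0.644, 0.580 and 1.11 FPKM at Day 60, yet its fold was alike, at 235 times the Day 60 mean (log2 difference 6.69, SE 0.38, adjusted p = 1.77e-15). The added 1 FPKM makes the log2 difference of Hbb-b2 smaller than this fold, since it reduces differences of low values. By the listed FPKM values, the order of the adult genes at GD17.5 was Hba-a1, Hbb-b1, Hba-a2 and Hbb-b2, with no overlap between mice of neighbouring genes. This order depends on how shared fragments were divided within each pair, which was not tested.

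**Figure D2:**
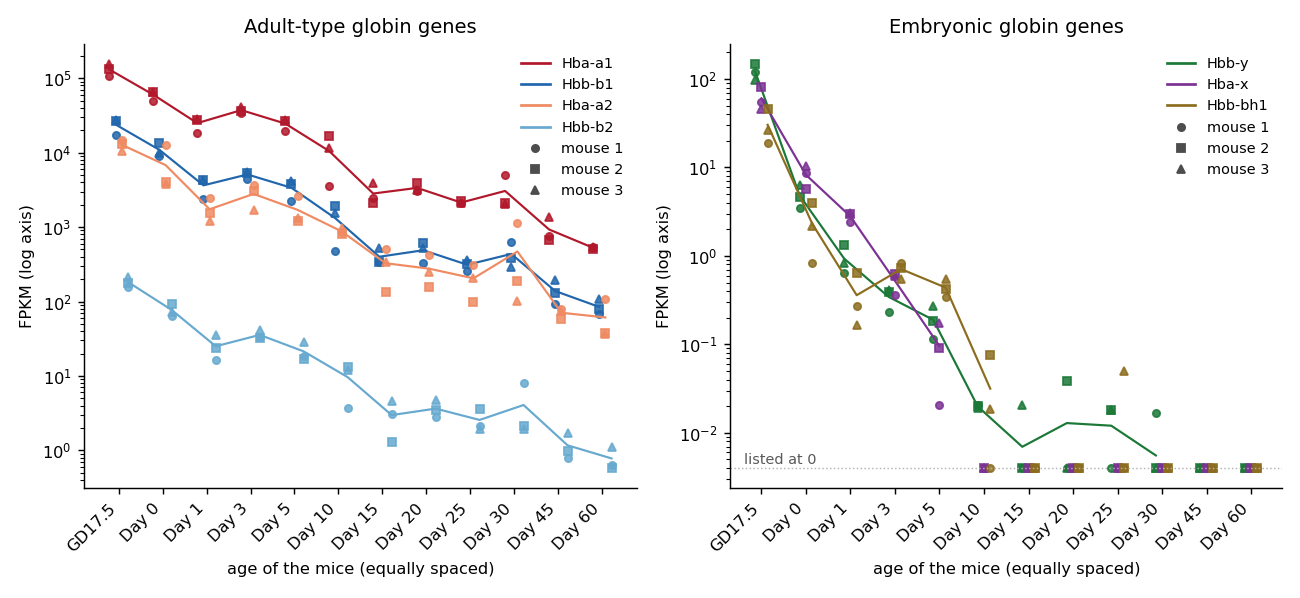
FPKM of the 4 adult-type (left) and 3 embryonic (right) globin genes on a log axis at each age, with 1 symbol per mouse and lines through age means above 0; values listed at 0 lie on the dotted line. Mean Hba-a1 was 131005 FPKM in the fetus and 527 FPKM in the adult, and mean Hbb-y went from 121 FPKM to 0.931 FPKM between GD17.5 and Day 1.

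The embryonic genes had low but well measured levels at GD17.5 and lost most of them by birth. Hbb-y, which encodes the epsilon-y chain, measured 120, 147 and 97.0 FPKM at GD17.5, about 4595 to 6853 fragments per mouse. It measured 3.51, 4.59 and 6.34 FPKM at Day 0 and 0.639, 1.33 and 0.826 FPKM at Day 1. The mean at GD17.5 was 25.2 times that at Day 0, and the log2 difference of Day 0 minus GD17.5 was -4.40 (SE 0.13, adjusted p = 3.55e-20). Hbb-y then declined to 12 to 21 fragments per mouse at Day 3, about 1 fragment in each mouse at Day 10, and was listed at 0 in each mouse at Days 45 and 60. A count of 0 allows up to 3 fragments, which was 0.0615 to 0.0622 FPKM at Day 60, and such floors cover counting error only.

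Hba-x, which encodes the embryonic alpha-like zeta chain, measured 54.7, 81.1 and 45.6 FPKM at GD17.5, then 8.63, 5.71 and 10.4 FPKM at Day 0, and 2.39, 2.94 and 3.05 FPKM at Day 1. Its mean at GD17.5 was 7.32 times that at Day 0 (log2 difference -2.72, SE 0.15, adjusted p = 7.22e-15), and each of the following means up to Day 5 lay below the one before with no overlap between mice. It was listed at 0 in each mouse from Day 10 on, where 3 fragments would be 0.0560 to 0.0692 FPKM. Hbb-bh1, which encodes the beta-h1 chain, measured 19, 45.8 and 26.3 FPKM at GD17.5 and 0.824, 3.96 and 2.17 FPKM at Day 0. Its mean at GD17.5 was 13.1 times that at Day 0 (log2 difference -3.27, SE 0.22, adjusted p = 1.82e-12). For all the embryonic genes the pooled SE takes in later ages listed at or near 0, where mice hardly differed. Their SEs and adjusted p-values are therefore smaller than the spread between mice at GD17.5 and Day 0 alone would give.

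The order of the embryonic beta-like genes turned around after Day 1. Hbb-y was above Hbb-bh1 in each mouse at GD17.5 (3.21 to 6.30 times), at Day 0 (1.16 to 4.26 times) and at Day 1 (2.08 to 4.99 times). At Day 3, Hbb-bh1 measured 0.839, 0.733 and 0.554 FPKM beside 0.235, 0.387 and 0.409 FPKM for Hbb-y, so that the ratio of Hbb-y to Hbb-bh1 was 0.280 to 0.738, and at Day 5 it was 0.331 to 0.490. The ranges of this ratio before and after did not overlap, but it was not tested, and the later values rest on 12 to 21 fragments of Hbb-y and 29.7 to 44.5 of Hbb-bh1 per mouse at Day 3. Hbb-bh1 at Day 3 overlapped with its own values at Day 1 (0.273, 0.639 and 0.166 FPKM), and the log2 difference of 0.34 did not pass the test (SE 0.22, adjusted p = 0.389).

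Embryonic transcripts were a small part of each globin class even at GD17.5. Hbb-y and Hbb-bh1 together were 0.794%, 0.708% and 0.439% of beta-like FPKM at GD17.5, 0.0476% to 0.0848% at Day 0 and 0.0172% to 0.0242% at Day 3. Hba-x was 0.0276% to 0.0559% of alpha-like FPKM at GD17.5, 0.00825% to 0.0151% at Day 0 and 0.000954% to 0.00155% at Day 3. Thus per unit of adult globin, the embryonic genes also fell, with the share of beta-like FPKM lower in each mouse of Day 0 than in each mouse of GD17.5.

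Compared with Day 60, 7 of 7 globin genes were higher at GD17.5 and at Day 0, and none was lower at any age. Many tested genes were higher as well, 56.4% at GD17.5 and 43.6% at Day 0, so the number of calls says little without the size of the differences. The median log2 difference of the 7 genes at GD17.5 was 6.91, beside 0.56 over all tested genes. At Day 1, 6 genes were higher (53.4% of tested genes were), all except Hbb-bh1 (0.43, SE 0.22, adjusted p = 0.0954). At Day 3 it was again 7 (55.7% of tested genes), and at Day 5 it was 5 (56.9%), without Hbb-y and Hba-x. The call of Hbb-bh1 at Day 5 (0.52, SE 0.22, adjusted p = 0.0428) was weak: leaving out any one of the 3 mice of Day 5 or of Day 60 lost it (0.47 to 0.57), as did scaling to a common upper quartile (0.41), testing with no filter on low values, and adjusting p over all comparisons together. Dunnett's comparison with Day 60 did not call it either.

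After Day 5 only the adult genes were called. All 4 were higher than at Day 60 at Day 10 (35.3% of tested genes were higher), Day 15 (18.4%) and Day 20 (8.93%), when Hba-a1 was still 19.9, 5.36 and 6.38 times its Day 60 mean. At Day 25 only Hba-a1 (2.02, adjusted p = 0.000353) and Hbb-b1 (1.88, adjusted p = 0.00147) passed, when 4.18% of tested genes were higher. At Day 30, when 1.77% of tested genes were higher, Hba-a1 (2.41, SE 0.37, adjusted p = 9.91e-05), Hbb-b1 (2.30, SE 0.38, adjusted p = 0.000302) and Hba-a2 (2.36, SE 0.63, adjusted p = 0.0282) passed. Hbb-b2 (1.31, SE 0.38, adjusted p = 0.0517) narrowly missed. Dunnett's comparison, which the study's methods use, called Hbb-b2 at Day 30 but not at Day 15. Limma also called it at Day 30 with 0.1 FPKM added in place of 1 (1.98), the upper quartile scaling (1.51) or a filter at 5 FPKM (1.31). The Hba-a2 call at Day 30 was lost without mouse 1 of Day 30 (1.35) or without mouse 2 (2.12) or mouse 3 (2.09) of Day 60, or with no filter on low values, and the Hba-a2 call at Day 20 without mouse 1 of Day 20 (1.89) or mouse 2 (2.00) or 3 (1.97) of Day 60. The Hbb-b2 call at Day 15 was lost without either mouse 1 (1.01) or 3 (0.79) of Day 15 or mouse 1 (1.03) or 2 (1.00) of Day 60, or with no filter on low values, and at Day 20 without mouse 3 of Day 20 (1.22) or mouse 2 of Day 60 (1.30).

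At Day 45, 0 of 7 passed with limma, none had an unadjusted p under 0.05, Dunnett's comparison called none, and 0.0628% of tested genes were higher. Hba-a1 measured 768, 664 and 1354 FPKM at Day 45, each above the 542, 505 and 536 FPKM of Day 60, but the log2 difference of 0.74 (SE 0.37, adjusted p = 0.701) did not pass. Over the 11 comparisons the globin genes were called in 49 of 77 instances with limma, all of them higher, beside 30.4% of instances higher over all tested genes, and in 48 with Dunnett's comparison of each gene on its own, which the study's methods use. All these comparisons share the 3 Day 60 mice.

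Between successive ages, the fall was called at some steps and not at others. From GD17.5 to Day 0, 6 of 7 globin genes fell (41.4% of tested genes did), with log2 differences of -1.12 (SE 0.37, adjusted p = 0.0117) for Hba-a1, -1.13 (SE 0.38, adjusted p = 0.0153) for Hbb-b1 and -1.25 (SE 0.38, adjusted p = 0.00768) for Hbb-b2. Hba-a2 had a like difference of -1.13 but a wider error (SE 0.63, adjusted p = 0.128). The embryonic genes had larger differences at this step, -2.72 to -4.40. The calls of Hba-a1 (-0.85), Hbb-b1 (-0.85) and Hbb-b2 (-0.98) were lost when each library was scaled to one upper quartile. There the median of all tested genes moved from -0.29 to -0.08. The embryonic calls were kept, but these genes passed the filter only through early ages at which they were high, GD17.5 among them. The contrast between adult and embryonic calls is therefore description only. The Hba-a1 call was also lost with no filter on low values, and the Hbb-b1 call without mouse 1 of Day 0 (-1.0), or without mouse 2 (-1.03) or 3 (-1.0) of GD17.5.

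From Day 0 to Day 1, all 7 genes fell, whereas 7.88% of tested genes did, with differences from -1.19 for Hbb-bh1 to -1.80 for Hba-a2. In Hba-a1 the mice of Day 1 measured 18500, 27607 and 28717 FPKM, below each mouse of Day 0 (-1.28, SE 0.37, adjusted p = 0.00922). Without mouse 1 of Day 1 that call was lost (-1.08), and the Hba-a2 call was lost without mouse 1 of Day 0 (-1.25) or mouse 2 (-1.76) or 3 (-1.57) of Day 1, with no filter on low values, or with p adjusted over all comparisons together.

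From Day 1 to Day 3 only Hba-x and Hbb-y of the 7 genes were called, both lower. The 4 adult genes had positive differences of 0.53 to 0.67, none past the test (smallest adjusted p = 0.338), although Hba-a1 measured 34332, 36809 and 40766 FPKM at Day 3, above each mouse of Day 1, and the embryonic Hbb-bh1 also had a positive difference that did not pass (0.34). In the same interval Hba-x (-1.32, SE 0.15, adjusted p = 3.09e-07) and Hbb-y (-0.51, SE 0.13, adjusted p = 0.0105) fell, as did 3.09% of tested genes. The Hbb-y call was lost without mouse 2 of Day 1 (-0.37) or mouse 1 of Day 3 (-0.45). From Day 3 to Day 5 none of the 7 passed with limma (1 at an unadjusted p under 0.05), when 2.12% of tested genes fell.

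From Day 5 to Day 10, Hba-a1 (-1.47, SE 0.37, adjusted p = 0.00236), Hbb-b1 (-1.53, SE 0.38, adjusted p = 0.00256) and Hbb-b2 (-1.20, SE 0.38, adjusted p = 0.0157) fell, as did 34.4% of tested genes. When each library was scaled to one upper quartile, these 3 calls were lost (-1.02, -1.07 and -0.77), and the Hbb-b2 call was lost without mouse 1 of Day 10 (-0.68) or mouse 3 of Day 5 (-0.98). With 0.1 FPKM added in place of 1, the embryonic Hbb-bh1 (-2.06), Hbb-y (-1.24) and Hba-x (-0.89) were also called lower. From Day 10 to Day 15 the same 3 adult genes were called lower (10.5% of tested genes were), at -1.69 (SE 0.37, adjusted p = 0.00195) for Hba-a1, -1.52 for Hbb-b1 and -1.35 for Hbb-b2. The Hbb-b1 call of this step was lost without mouse 2 (-1.15) or 3 (-1.29) of Day 10, and the Hbb-b2 call without mouse 2 (-1.06) or 3 (-1.13) of Day 10 or mouse 2 of Day 15 (-1.0), and with the upper quartile scaling (-1.24).

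Day 10 and Day 30 each held 1 mouse that stood apart. At Day 10, Hba-a1 measured 3565 FPKM in mouse 1 beside 16496 and 11467 FPKM in mice 2 and 3, and Hbb-b1 measured 484 FPKM beside 1898 and 1558 FPKM. In the same mouse Alas2, the first enzyme of heme synthesis in red cells, was lowest at 73.4 FPKM beside 217 and 129 FPKM, and so was Slc4a1, the band 3 anion exchanger of the red cell membrane, at 25.2 FPKM beside 52.1 and 35.4 FPKM. The muscle gene Acta1 was highest in it, at 40.8 FPKM beside 3.48 and 0.332 FPKM, and its part in these values was not tested. At Day 30, Hba-a1 measured 4970 FPKM in mouse 1 beside 2136 and 2073 FPKM, and Hbb-b1 measured 634 FPKM beside 379 and 294 FPKM. Here Alas2 (66.8 FPKM) and Slc4a1 (0.564 FPKM) were lowest, not highest, in mouse 1, beside 70.5 and 78.5 FPKM and 1.10 and 1.18 FPKM in the others.

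From Day 15 to Day 30 no step of the adult genes was called, which with 3 mice per age does not show constant levels. Mean Hba-a1 was 2825, 3363, 2136 and 3060 FPKM at Days 15, 20, 25 and 30. Its mice of Days 20 and 25 did not overlap, while those of the other steps in this span did. In the steps from Day 15 to 20, Day 20 to 25 and Day 25 to 30 limma called none of the 7, with none at an unadjusted p under 0.05 (1.16%, 3.26% and 0.807% of tested genes fell). From Day 30 to Day 45 Hba-a1 (-1.66, SE 0.37, adjusted p = 0.0176) and Hbb-b1 (-1.64, SE 0.38, adjusted p = 0.0270) fell, as did 0.798% of tested genes. Both calls were lost without mouse 1 of Day 30 (-1.25 and -1.33) and without mouse 1 (-1.56 and -1.38) or mouse 2 (-1.46 and -1.63) of Day 45, and with no filter on low values. The Hbb-b1 call was also lost without mouse 2 of Day 30 (-1.70) and with the upper quartile scaling (-1.61). The last step is the comparison of Day 45 with Day 60 given above, with none called. Over the 11 steps 23 of 77 instances were called, all of them lower, beside 9.59% lower over all tested genes.

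The balance of beta-like to alpha-like FPKM was steadier than the levels. The ratio was between 0.0961 and 0.199 in all 36 mice, with means of 0.167 ± 0.0217 in the GD17.5 mice, 0.116 ± 0.00916 in the Day 10 mice and 0.147 ± 0.0411 in the adult Day 60 mice (SD, n = 3). FPKM values do not give the ratio of the chains, and poly-A selection and shared reads can shift it. Within the pairs, Hbb-b2 was 0.375% to 1.27% of Hbb-b1 plus Hbb-b2, and Hba-a2 was 3.91% to 20.0% of Hba-a1 plus Hba-a2.

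The split of the alpha pair followed the mouse number rather than age. In the mice numbered 1, Hba-a2 was 9.38% to 20.0% of the pair, and it was the highest of the 3 mice at 12 of 12 ages, with no overlap with the 3.91% to 8.95% of the 24 mice numbered 2 and 3. Mice that share a number are different animals of different ages, and the sources used here do not say what the number stands for. The beta-like to alpha-like ratio was lowest in mouse 1 at 11 of 12 ages, Hbb-b1 was lowest in mouse 1 at 11 of 12 ages, and Hbb-b2 was the smallest share of its pair in mouse 2 at 11 of 12 ages. Over all 11149 tested genes, 1 was highest and 19 were lowest in mouse 1 at each of the 12 ages, and none was highest or lowest throughout in mouse 2 or mouse 3. The part of library preparation or of read assignment in this was not tested.

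**Figure D3:**
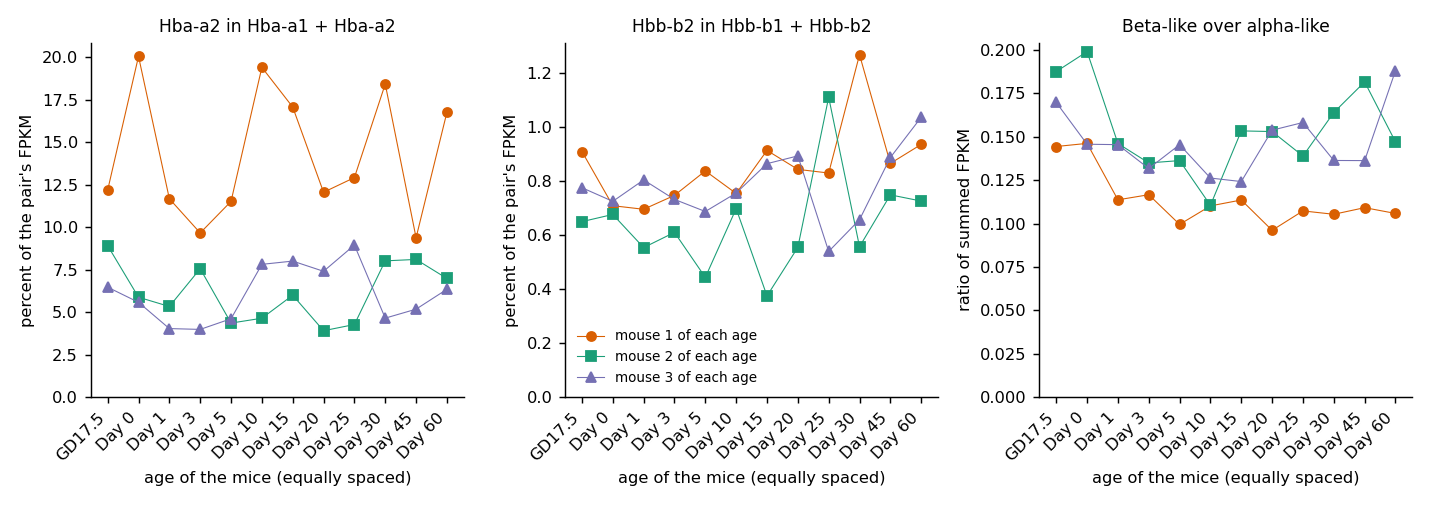
Percent of the FPKM of each near-identical adult pair held by Hba-a2 (left) and Hbb-b2 (middle), and the ratio of summed beta-like to alpha-like FPKM (right), at each age with 1 line per mouse number, where equal numbers at different ages are different animals. Hba-a2 lay at 9.38% to 20.0% in mice numbered 1 and at 3.91% to 8.95% in the others.

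Other red cell genes also fell from the fetus to the adult. Of a list of 30 erythroid genes that are no globins, 29 were found (Ahsp was not) and all 29 were tested. Their summed FPKM was 6570 to 8076 at GD17.5, 2083 to 2832 at Day 3, 249 to 453 at Day 10 and 127 to 132 at Day 60. Of the 29 genes, 29 were higher than at Day 60 at each age from GD17.5 to Day 5, when 43.6% to 56.9% of all tested genes were. This held for 25 at Day 10 (35.3% of all tested genes) and 6 at Day 15 (18.4% of all tested genes, a share like that of the list), and for none at Day 45 with limma (0 at an unadjusted p under 0.05). Their median log2 difference at GD17.5 was 6.30, beside 6.91 for the globins and 0.56 for all tested genes. The 3 largest differences at GD17.5 were those of Slc4a1 (10.34, SE 0.29, adjusted p = 1.02e-22), Rhd (8.70), which encodes a Rhesus blood group protein, and Car2 (8.17), which encodes carbonic anhydrase 2. The part of the number of red cell precursors in the globin levels was not tested.

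By the ratio of mean FPKM, though not on the log2(FPKM + 1) scale, the fall of Hba-a1 was smaller than that of most of this list. From GD17.5 to Day 60, Hba-a1 fell 248-fold, whereas 19 of the 29 erythroid genes fell further and 10 less. Slc4a1 fell from 1593 to 0.211 FPKM and Gata1, a master regulator of red cell genes, from 90.4 to 0.00745 FPKM, whereas Alas2 fell only from 1053 to 68.1 FPKM. The others with a smaller fall than Hba-a1 were Klf1, Nfe2, Epor, Tfrc, Tspan33, Car1, Fech, Slc25a37 and Slc25a38, several of which handle heme or iron. At Day 15 the Hba-a1 mean was still 5.36 times its Day 60 mean and Hbb-b1 was 4.72 times, while Alas2 (57.2 FPKM) and Fech (32.8 FPKM) were below their Day 60 means. The ratio of Hba-a1 to Alas2 was 125 ± 25.9 in the GD17.5 mice, 48.8 ± 9.63 in the Day 15 mice and 7.75 ± 0.105 in the Day 60 mice (SD, n = 3). At the same 3 ages the ratio of Hba-a1 to Slc4a1 was 86.6 ± 30.9, 854 ± 263 and 2699 ± 938.

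Between Day 1 and Day 5 the erythroid list had more calls than the globins, with medians of like size. From Day 1 to Day 3, 20 of the 29 genes rose and none fell, when 8.22% of tested genes rose, with a median log2 difference of 0.73, close to the 0.53 to 0.67 of the adult globins that did not pass. From Day 3 to Day 5, 19 fell and none rose, when 2.12% of tested genes fell, with a median of -0.81, beside a median of -0.61 for the 7 globins, none of which passed. From Day 5 to Day 10, 28 of 29 fell (median -2.51; 34.4% of tested genes fell), and from Day 10 to Day 15, 25 fell (median -1.15; 10.5% of tested genes), beside medians of -0.88 and -1.35 for the 7 globins. Whether these differences between lists exceed the spread was not tested.

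**Figure D4:**
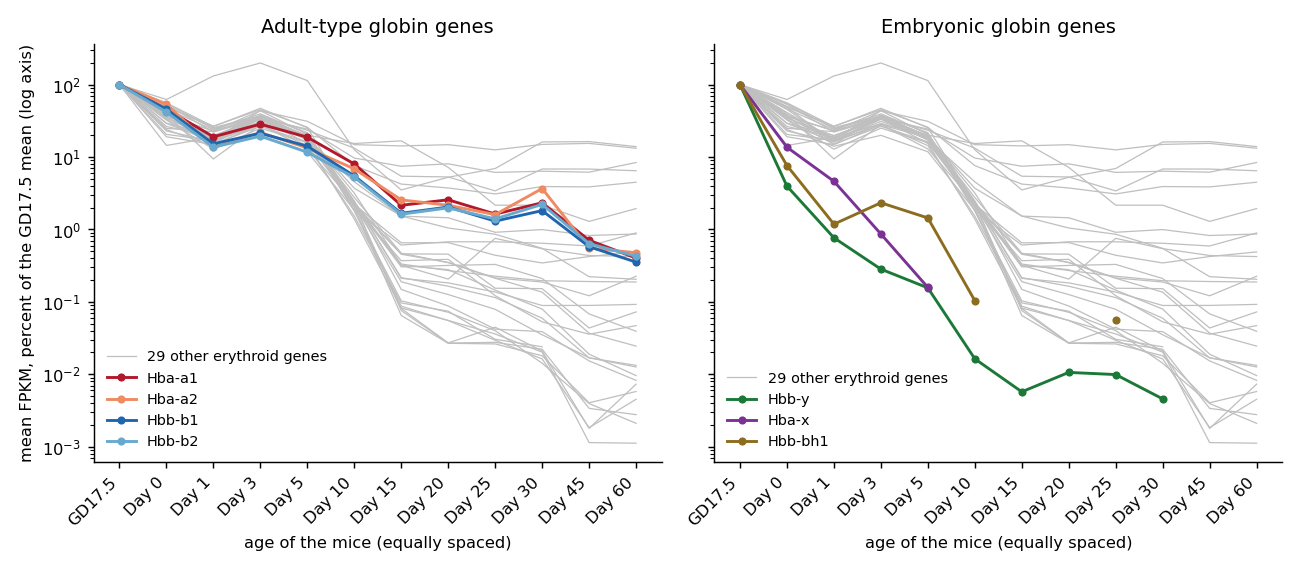
Mean FPKM of each age as a percent of the GD17.5 mean (log axis, ages with a mean of 0 left out) for the adult-type globins (left), the embryonic globins (right) and 29 other erythroid genes (grey in both). At Day 60 Hba-a1 kept 0.403% of its GD17.5 mean, and at Day 0 Hbb-y kept 3.97% and Hba-a1 45.8%.

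Regulators of the globin loci were examined with a list of 17 genes, all found and 16 of them tested, 4 of which (Klf1, Gata1, Tal1 and Nfe2) are also on the erythroid list. All 16 were higher at GD17.5 than at Day 60 (median log2 difference 2.79), as were 56.4% of all tested genes, led by Nfe2 (6.74, SE 0.19, adjusted p = 1.40e-22), Klf1 (6.71, SE 0.19, adjusted p = 1.05e-22) and Gata1 (6.50, SE 0.15, adjusted p = 3.38e-24), 3 transcription factors that bind the globin promoters or their enhancers. From GD17.5 to Day 0 all 16 fell, as did 41.4% of all tested genes. From Day 0 to Day 1, Klf1, Gata1, Nfe2, Zfpm1 and Bcl11a fell (7.88% of all tested genes fell). Myb, Chd4, Hic2, Igf2bp1 and Igf2bp3 rose, as did 2640 of 11149 tested genes, a share not far below that of the list. From Day 1 to Day 3, Klf1, Gata1, Tal1 and Zfpm1 rose (8.22% of all tested genes rose), and Myb and Igf2bp1 fell (3.09% fell). Klf1 measured 31.8, 37.8 and 39.0 FPKM at Day 1 and 79.3, 65.7 and 63.9 FPKM at Day 3, with no overlap. At Day 15 only Ldb1 and Igf2bp3 were still higher than at Day 60, beside 18.4% of all tested genes, and Zfpm1 was lower (998 of 11149 tested genes were).

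Of 10 other symbols of the globin family, 4 were in the table (Mb, Cygb, Ngb and Hbq1) and 2 were tested. Hbq1, a theta-like gene of the alpha cluster, measured 8.61, 11.7 and 8.0 FPKM at GD17.5 and 0.0661, 0.0622 and 0.0352 FPKM at Day 60, and was higher at GD17.5 (log2 difference 3.29, SE 0.18, adjusted p = 6.53e-16). Cygb, the cytoglobin of stellate cells of the liver, went the other way, at 0.928, 0.872 and 1.01 FPKM at GD17.5 and 2.64, 3.11 and 3.96 FPKM at Day 60 (-1.12, SE 0.19, adjusted p = 4.50e-06). The myoglobin gene Mb was highest in mouse 1 of Day 0 (1.40 FPKM), the mouse with the highest level of the muscle gene Acta1 (636 FPKM beside 0.778 and 0.217 FPKM). Ngb, the neuroglobin gene, did not exceed 0.104 FPKM in any mouse.

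Genes that clear hemoglobin and heme were divided. Of 9 listed genes, 8 were tested, of which 4 were higher and 3 lower at GD17.5 than at Day 60. Of all 11149 tested genes, 56.4% were higher and 2079 lower, so the count higher was near the share of all genes. At GD17.5, Hmox1 (3.58, SE 0.22, adjusted p = 1.21e-14), Blvrb, Blvra and Spic, of which the first 3 encode enzymes of heme and biliverdin breakdown and the last a factor of red pulp macrophages, were higher than at Day 60. Hpx (-5.68, SE 0.24, adjusted p = 2.39e-18) and Hp (-4.01, SE 0.22, adjusted p = 6.05e-16), hepatocyte genes for the plasma proteins hemopexin and haptoglobin, and Lrp1, the receptor for hemopexin with its heme, were lower. Hepatocyte markers as a list were lower too, with 6 of 6 called at GD17.5, when 2079 of 11149 tested genes were lower. Their summed levels were 5056 to 5790 FPKM at GD17.5, against 36251 to 42519 FPKM at Day 60. Markers of other blood cells were higher at GD17.5 in 8 of 8 neutrophil genes, 6 of 6 megakaryocyte and platelet genes, 5 of 5 B lineage genes and 3 of 5 macrophage genes (1 lower), beside 56.4% of all tested genes, so the macrophage count was near the share of all genes. Of 4 skeletal muscle genes 1 was higher, and none of 5 exocrine pancreas genes passed with limma (0 at an unadjusted p under 0.05). The spread of the pancreas genes was wide, with a summed FPKM of 0.353 to 15513 among the Day 60 mice and 0.513 to 2.09 at GD17.5. Pancreas RNA was thus present in the adult reference and uneven between its mice. The part of any of these cell types in the globin results was not tested.

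Within an age, mice that were high in one globin tended to be high in the other. Deviations of log2(FPKM + 1) from the age mean of Hbb-b1 were compared with those of 4 other genes over 36 mice. With Hba-a1, Pearson's r was 0.884 (permutation p = 4e-05, adjusted over the 4 pairs 0.00016) and Spearman's rho 0.860 (permutation p = 1e-05, the smallest that the permutations can give, adjusted 4e-05). Without the 2 mice farthest from the median, mice 1 and 2 of Day 10, r was 0.818 (adjusted permutation p = 0.00068), and within mice numbered 1, 2 and 3 it was 0.957, 0.937 and 0.827.

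The relation with other genes was weaker. With Alas2, r was 0.637 (permutation p = 0.00639, adjusted 0.0128) and rho 0.502 (permutation p = 0.0163, adjusted 0.0326), but it rested on the mice of Day 10: without mice 1 and 2 of that age r was 0.398 (adjusted permutation p = 0.0741). Within mouse numbers it was 0.492, 0.908 and 0.0390, so it did not hold in mice numbered 3. With Slc4a1, r was -0.00960 (permutation p = 0.970, adjusted 0.970; rho -0.110, permutation p = 0.603, adjusted 0.603), and 0.112, 0.483 and -0.237 within mouse numbers. With Alb, the albumin gene of hepatocytes, r was -0.348 (permutation p = 0.0549, adjusted 0.0732; rho -0.314, permutation p = 0.0848, adjusted 0.113), and -0.225, -0.0644 and 0.171 within mouse numbers. Without the 2 Day 10 mice r was -0.314 for Slc4a1 and -0.256 for Alb.

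**Figure D5:**
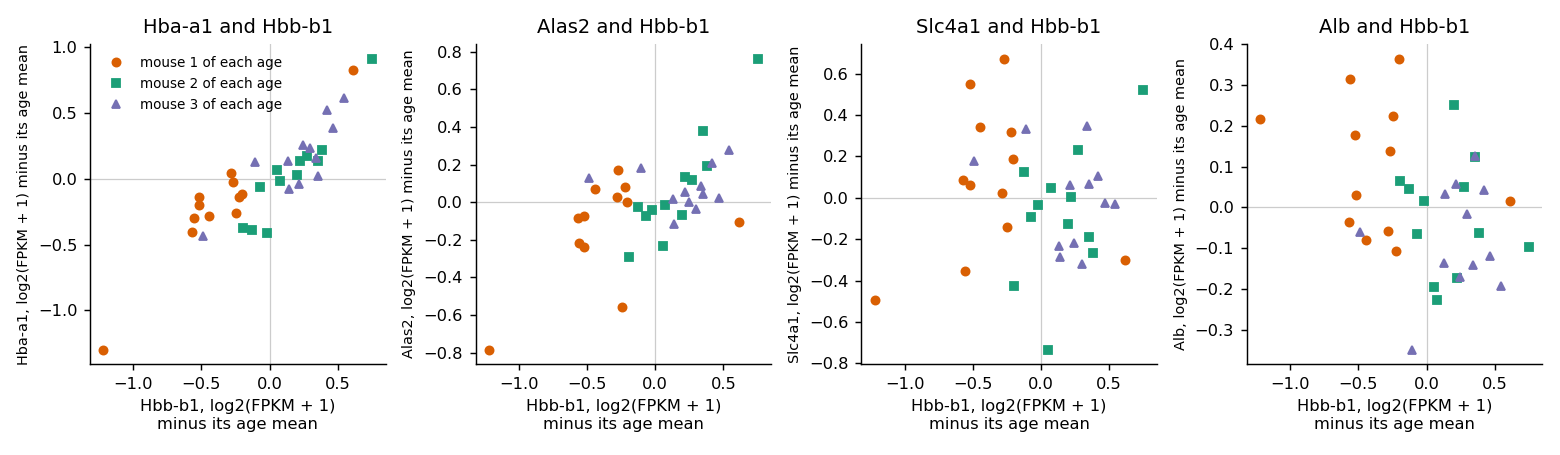
Deviation of log2(FPKM + 1) from the age mean in each of 36 mice, for Hbb-b1 (x axis) against Hba-a1, Alas2, Slc4a1 and Alb (y axes), coloured by mouse number. Pearson's r was 0.884, 0.637, -0.00960 and -0.348 from left to right, and mouse 1 of Day 10 lies at the far left of each panel.

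Over the 12 age means of log2(FPKM + 1), the adult genes had near-identical profiles (r = 0.998 between Hba-a1 and Hbb-b1), and so had the embryonic beta-like genes (r = 0.991 between Hbb-y and Hbb-bh1), while the adult and embryonic profiles were less alike (r = 0.688 between Hba-a1 and Hbb-y). These values describe 12 means that share a common decline with age. Among 4772 other tested genes with an age mean of at least 10 FPKM, those like Hba-a1 included Bcat2, Atpif1, Ube2c and Samd1 (0.987 to 0.994). Those like Hbb-b1 included Bcat2 (0.992), Atpif1 (0.990), Ruvbl2 (0.989) and Samd1 (0.986). The genes most like Hbb-y were Tnnc1 (0.988), Slc2a1 (0.971), Cited1 (0.959), Prdx3 (0.928) and Top1 (0.926), and those most like Hbb-bh1 were Tnnc1 (0.987), Cited1, Slc2a1, Prdx3 and Alad (0.947). Tnnc1, a troponin gene, had a mean of 57.2 FPKM in the fetus and of 1.01 FPKM on Day 3, and Slc2a1, the gene for the glucose transporter Glut1, from 148 to 5.10 FPKM.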

How the data were processed

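The authors made TruSeq libraries from poly-A selected liver RNA, sequenced paired ends of 100 bases, mapped the reads to NCBI37/mm9 with TopHat 1.2.0 and estimated abundance with Cufflinks 1.0.3 (versions per the submitters' processing notes). They deposited 1 FPKM value per gene symbol and mouse, without counts. How several loci of one symbol were combined is not given in the sources used here. Values were analysed as log2(FPKM + 1) for genes that reached a mean of 1 FPKM at some age, with limma 3.58.1 in R 4.3.3 (1 mean per age, variance trend, threshold of 0.05 on adjusted p), tested on simulated data. Each age was compared with Day 60 and with the age before it. A step in which no globin gene passed is given as a count. Sums, permutation tests (two-sided, 100000 permutations within ages) and figures used scipy 1.17.1 under Python 3.11.15, with pandas 2.3.3, matplotlib 3.10.9 and numpy 2.4.6. Coding and promoter motifs were read from GENCODE M1 and RefSeq sequences. The numbers of fragments were estimated from the spacing of low FPKM values. The genes named are all 7 globin genes, the 3 of each list with the largest GD17.5 difference, members of counts of 5 or fewer, and the 5 most alike profiles, of which 1 is not reported here; a few others, such as Gata1 levels, Fech, Acta1 and the genes that fell less than Hba-a1, were added after their values were seen. The globin genes and all lists were chosen with earlier results of these data known.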

Additional observations from a re-analysis of the deposited data

How the results depend on the processing

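Of 49 calls against Day 60 and 23 between successive ages, the alternatives gave 46 to 54 and 15 to 27 when each gene kept its own row. The lowest of the second range, 15, came from scaling to a common upper quartile. Summing each near-identical pair before the log, which leaves 5 rows in place of 7, gave 32 against Day 60 and 18 between ages. Leaving out each mouse in turn gave 44 to 50, 21 to 25 and, for the erythroid list with 187 calls, 181 to 189. No single-gene difference changed direction; 4222 of the single-gene values with a mouse left out kept their side of the threshold, 41 lost it and 21 gained it, and under the other alternatives 1106 kept it, 18 lost it and 32 gained it. Shares and ratios moved by less than 1 SD between mice. The correlation of Hbb-b1 with Alas2 was 0.398 without the 2 mice farthest from the median and no longer passed. With each mouse left out, Hbb-b1 with Slc4a1 ranged from -0.180 to 0.0614 and changed sign, and Hbb-b1 with Alb from -0.393 to -0.274, passing without mouse 1 or 2 of GD17.5 or mouse 2 or 3 of Day 0; the causes were not tested.

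The replicate block, with the mouse number as a term, gave 51 calls against Day 60 and 26 between ages, the added ones being Hba-a2 at Day 25 and Hbb-b2 at Day 30 against Day 60, and Hba-a2 at the steps to Days 0, 15 and 45. The numbers were not treated as pairing the mice, since mice that share a number are different animals. Of the 66 pairs of mice that share number 1, 44 deviated together with a correlation over 0.1. So did 26 of 66 for number 2 and 34 of 66 for number 3, beside 147 of 396 pairs with different numbers. Pairs that share number 1 or 3 thus deviated together more often than pairs with different numbers. Of 36 mice, 19 correlated best with their own number. The source of this shared deviation was not tested. Values near 1 fragment limit the embryonic genes after Day 5.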
